A study of Homo sapiens with 10 samples.

Results

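The fibroblast growth factor (FGF) genes described here are 22 ligands and ligand-like genes (FGF1 to FGF14 and FGF16 to FGF23), 5 receptors (FGFR1 to FGFR4 and FGFRL1), the 2 klotho co-receptors KL and KLB, and the 3 secreted FGF-binding proteins FGFBP1 to FGFBP3. They were chosen by name, and each of the 32 members was found once among the 58216 gene identifiers of the deposited count table. The table covers 10 bulk RNA-seq libraries of TREx293 cells, a derivative of the human embryonic kidney line HEK293 in which a construct placed at a recombination (FRT) site is switched on by doxycycline. The 5 groups of 2 libraries are CTRL, whose genotype is given as wild type, and lines with a knock-in of MN1, of BEND2, of the MN1-BEND2 fusion or of the MN1-CXXC5 fusion. The series asks how the fusions found in astroblastoma, a brain tumour, change transcription.

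Per the labels' protocols, the constructs were cDNAs with a 3×HA tag, lines were selected with blasticidin and hygromycin, and doxycycline induced expression. The labels do not say whether CTRL carried an empty construct or received doxycycline. Neither the number of clones per line nor the origin of the replicates (separate cultures or not) is stated, so every p-value reflects sample-to-sample spread that could be technical.

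FGFs are secreted proteins that bring FGF receptor tyrosine kinases together on the cell surface, with heparan sulfate chains as a cofactor, and the receptors signal mainly through the RAS to ERK cascade. FGF19, FGF21 and FGF23 bind heparan sulfate weakly, circulate as hormones and need a klotho protein beside the receptor. FGF11 to FGF14 stay inside the cell and bind voltage-gated sodium channels. FGFR1 to FGFR3 are expressed in glia and their progenitors in the developing brain, and FGFRL1 lacks the tyrosine kinase domain of the other receptors.

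Each line expressed its own construct. MN1 stood at 3.81 to 5.39 CPM (counts scaled to a common library size with TMM factors) in the CTRL and BEND2 libraries. It was at 328 and 325 CPM in MN1, 291 and 291 in MN1-BEND2 and 128 and 128 in MN1-CXXC5. The part of this difference in comparisons between these lines was not tested. BEND2 was at 390 to 407 CPM in the lines with a BEND2 sequence and at 0 to 0.573 elsewhere. CXXC5 was at 55.2 and 61.9 CPM in MN1-CXXC5 against 8.36 to 22.9 elsewhere. Libraries held 15914424 to 26799613 counts. Of 9 HEK293 markers, 8 were expressed above the low-count filter and LHX1 was not, at 0.325 CPM or less. The summed level of 16 salivary gland and squamous markers, KRT4 and KRT13 among them, was 96.8 CPM in CTRL replicate 1 and 88 CPM in MN1 replicate 1, against 0.437 to 2.36 CPM in the other 8 libraries, and 3 of the 16 were at 0 throughout. Values without those 2 libraries are given for a few results only, and other member results may also depend on them. The fit without both is among the alternatives counted at the end. The summed level of 8 T and NK cell markers was 4.44 CPM in MN1-BEND2 replicate 1 and 2.9 CPM in MN1-CXXC5 replicate 1, against 0.725 to 1.65 CPM elsewhere. Fibroblast markers summed to 4.14 to 11.7 CPM and kidney tubule markers to at most 0.39 CPM. In bulk RNA, fewer cells of a type and less RNA per cell cannot be told apart.

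The stretch just before the start of 3 genes is shown, because these are the members that changed in one direction in all of the lines with an MN1 sequence: FGF21 fell, and FGF5 and FGFR3 rose. The bases are on the plus strand of GRCh38.p14, 5′ to 3′, from RefSeq, and end next to the RefSeq start of the gene. Capitals mark CG dinucleotides and, in FGF21, the match to a motif.
FGF21, chr19:48755391-48755523: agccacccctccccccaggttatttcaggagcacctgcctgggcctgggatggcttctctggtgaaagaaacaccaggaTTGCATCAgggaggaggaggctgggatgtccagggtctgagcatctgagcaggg
FGF5, chr4:80266338-80266587: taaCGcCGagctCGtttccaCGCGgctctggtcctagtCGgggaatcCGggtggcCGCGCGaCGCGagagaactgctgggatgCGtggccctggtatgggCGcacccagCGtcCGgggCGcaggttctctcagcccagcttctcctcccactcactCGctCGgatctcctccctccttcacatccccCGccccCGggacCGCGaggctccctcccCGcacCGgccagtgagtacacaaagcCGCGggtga
FGFR3, chr4:1793043-1793292: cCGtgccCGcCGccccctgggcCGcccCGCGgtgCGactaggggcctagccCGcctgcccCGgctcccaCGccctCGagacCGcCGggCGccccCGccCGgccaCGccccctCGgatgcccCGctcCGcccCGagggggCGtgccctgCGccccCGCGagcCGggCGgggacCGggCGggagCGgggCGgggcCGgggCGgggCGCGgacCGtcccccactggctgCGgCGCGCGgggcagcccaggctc

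The printed stretches differ in composition. The 133 bases shown for FGF21 hold 0 CG dinucleotides, as does its whole window of 250 bases, while the 250 bases of FGF5 hold 27 and those of FGFR3 hold 40. The median over all 35116 windows of this length was 11. Of the 32 members, 24 had a window, and together they had 40. For each of these genes only the window nearest its GENCODE start was used, and member windows here means those 24. Their median was 16. The FGF21 stretch stops short of the window's far end because the rest lies in an exon of FUT1, a fucosyltransferase gene on the opposite strand whose start lies 0.2 kb from that of FGF21. Its capital run matches TGATGNAA on the minus strand, the core of the element bound by C/EBP and ATF factors, 54 to 47 bases before the start. Searched on both strands, that core occurred in 3.14% of all windows and in 2 member windows, the other being FGFBP3. Of the other motifs searched, TGACGTCA (a cyclic AMP response element) occurred in FGF6, TATAAA in FGF6 and FGF13, CACGTG (an E-box) in FGF14 and FGFRL1, and TGANTCA (AP-1) in no member window, against 1.65%, 10.7%, 6.34% and 6.57% of all windows. The windows used for FGF12, FGF13 and FGFRL1 have starts 40223, 17754 and 2528 bases from the GENCODE start of the gene. A match is only a match of letters.

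Which FGF genes did these cells express? Of the 32 members, 17 passed the filter on low counts and 15 did not. Per kilobase of exon (RPKM, CPM divided by the merged length of all annotated exons), the highest ligand in CTRL was FGF9 at 8.46 and 7.97. FGF2 followed at 6.24 and 5.9. The order depends on this length, which for genes with many exons can exceed that of any transcript. FGF21 stood at 1.86 and 2.44 RPKM, FGF12 at 1.46 and 1.44, FGF13 at 1.31 and 1.34, and FGF5 at 1.21 and 1.07. The replicate values of neighbours in this order did not overlap. In CPM the order differed: FGF13, with 20681 exon bases, stood at 27.1 and 27.7 and FGF21 at 2.45 and 3.21. Among receptors, FGFR2 led at 7.87 and 7.49 RPKM, then FGFR1 at 5.01 and 5.11, FGFRL1 at 4.52 and 4.85, FGFR3 at 4.05 and 3.96, and FGFR4 at 1.51 and 1.15. The merged exons are 13842 bases for FGFR1 and 7578 for FGFR2. In CPM, FGFR1 was above FGFR2 in CTRL, at 69.3 and 70.8 against 59.6 and 56.8. Thus all of the kinase receptors were detected, and the co-receptors hardly: KLB, the partner for FGF19 and FGF21, was at 0.385 to 0.521 CPM in CTRL, and KL, the partner for FGF23, had 1 and 2 counts.

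The order of the receptors by RPKM differed between lines. By CPM too, FGFR1 led in MN1-BEND2, at 151 and 147 against 65.2 and 61.4 for FGFR2. FGFR2 led by CPM in MN1-CXXC5, at 78.1 and 76 against 57.7 and 61.5 for FGFR1. In MN1-BEND2, FGFR1 led at 10.9 and 10.7 RPKM, with FGFR3 at 9.43 and 9.48, FGFRL1 at 8.37 and 9.35 and FGFR2 at 8.6 and 8.1, the last pair overlapping. In MN1-CXXC5, FGFR2 led at 10.3 and 10.0 RPKM, with FGFR3 at 6.67 and 6.13, FGFRL1 at 4.5 and 4.41 and FGFR1 at 4.17 and 4.44, again with the last pair overlapping. FGFR4 came last in every library, between 0.699 and 1.6 RPKM.

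Against CTRL, the quasi-likelihood test of edgeR, adjusted by Benjamini-Hochberg over 18127 genes, called 10 of the 17 tested members in MN1-BEND2, 9 higher and 1 lower. In that comparison 51.9% of all tested genes were called, 26.7% higher and 25.2% lower. The members' median log2 fold change was 0.43, against 0.008 for all genes. In MN1-CXXC5 the same test called 9 members, 5 higher and 4 lower, where 44.3% of all genes were called, and in MN1 it called 10, 4 higher and 6 lower, where 43% were. In BEND2 alone it called 2, 1 higher and 1 lower, against 14.2% of all genes (6.71% higher and 7.46% lower). The shares of members called were thus near the background throughout, and in MN1-BEND2 they lay mostly on the higher side. A member can pass the filter through its high group alone, so these counts describe the list and support nothing beyond it.

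**Figure D1:**
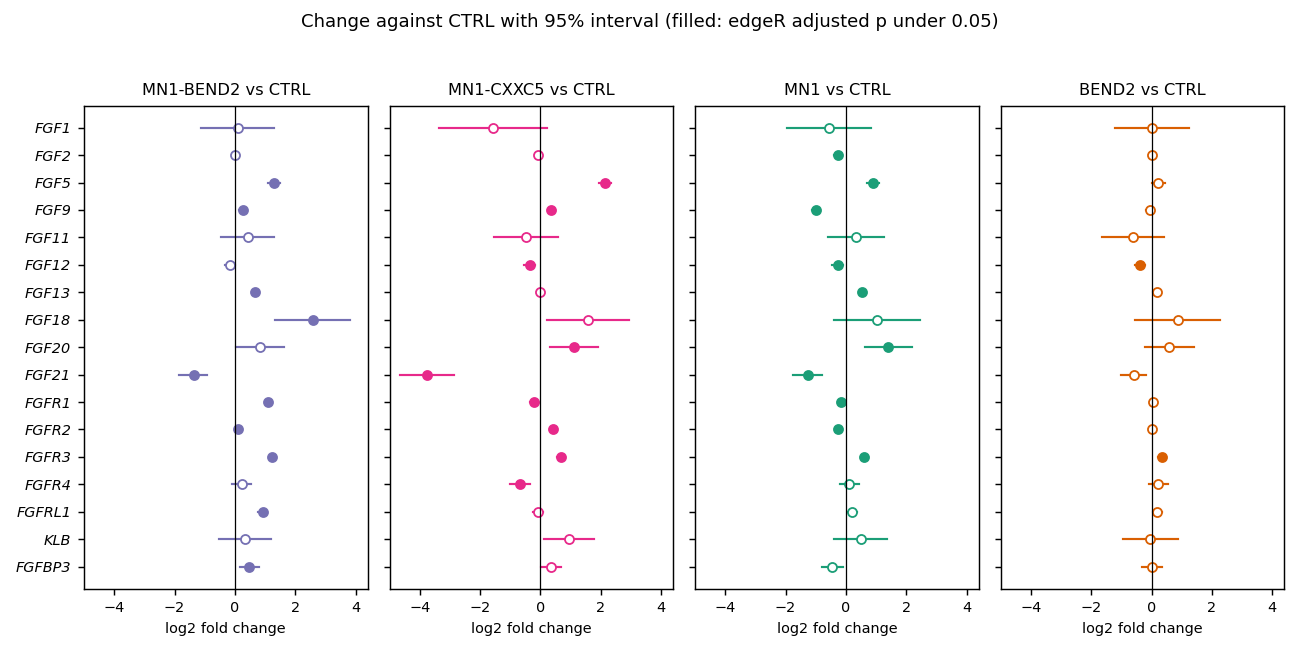
Log2 fold change of the 17 tested members against CTRL in each of the other 4 lines, with 95% intervals from the edgeR fit; filled points passed an adjusted p of 0.05. FGF21 lies left of 0 and FGF5 and FGFR3 right of 0 in every panel, though in BEND2 only FGFR3 of these 3 passed, and the low members FGF1, FGF11, FGF18, FGF20 and KLB have the widest intervals.

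Among the secreted ligands, FGF5 changed most steadily. FGF5, a ligand best known for ending the growth phase of hair follicles, lies at 80266599 to 80336680 on chromosome 4 (GRCh38, plus strand). Its level was 7.24 and 6.42 CPM in CTRL, 8.36 and 7.36 in BEND2, 12.9 and 12.2 in MN1, 17.7 and 15.7 in MN1-BEND2, and 30.4 and 29.7 in MN1-CXXC5. The lines with an MN1 sequence lay above CTRL and BEND2 without overlap, and did not overlap each other, with MN1-CXXC5 the highest. The log2 fold change against CTRL was 2.14 ± 0.097 (SE, edgeR, n = 2 per group, adjusted p 1.65e-08) in MN1-CXXC5, 1.29 ± 0.099 in MN1-BEND2 (adjusted p 4.33e-07) and 0.88 ± 0.1 in MN1 (adjusted p 2.99e-05). In BEND2 it was 0.22 and did not pass (adjusted p 0.203). Each fusion also exceeded MN1 in the edgeR fit, by 0.41 for MN1-BEND2 (adjusted p 0.0031) and by 1.26 for MN1-CXXC5 (adjusted p 3.32e-07), and MN1-BEND2 against MN1-CXXC5 was -0.85 (adjusted p 3.39e-06).

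The nearest protein-coding neighbour of FGF5 on the side of lower coordinates, the PR-domain zinc finger gene PRDM8 at 62.3 kb, was singled out after its values were seen. It rose by 1.38 in MN1-BEND2 and by 1.71 in MN1-CXXC5, and passed in neither MN1 (0.22, adjusted p 0.196, edgeR) nor BEND2 (0.13, adjusted p 0.568). ANTXR2, at 141.1 kb on the same side, passed only in MN1, at 0.26.

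FGF9 moved in opposite directions in MN1 and in the fusions. FGF9, a ligand for FGFR2 and FGFR3 first found in glial cells, is on chromosome 13 at 21671383 to 21704498. It stood at 38.4 and 36.2 CPM in CTRL, 37.2 and 33.6 in BEND2, 18.7 and 18.3 in MN1, 45.4 and 43.7 in MN1-BEND2, and 49.1 and 46.2 in MN1-CXXC5. MN1 was the only low group and both fusions lay above CTRL. The fall in MN1 was by 1.01 on the log2 scale (SE 0.066, edgeR, n = 2 per group, adjusted p 3.32e-07), while the rises were 0.26 in MN1-BEND2 (adjusted p 0.00179) and 0.36 in MN1-CXXC5 (adjusted p 0.000282). Against MN1 directly, FGF9 was 2.41-fold higher in MN1-BEND2 and 2.58-fold higher in MN1-CXXC5 (edgeR adjusted p 1.51e-08 and 1.2e-08). The rise in MN1-BEND2 missed the threshold with DESeq2 (0.25, adjusted p 0.0668).

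FGF2, the basic FGF that is widely used as a mitogen for neural progenitors, was lowest in MN1. Its libraries lay at 38.2 to 43.4 CPM in CTRL, BEND2 and both fusions and at 34.8 and 32.9 in MN1. MN1 was the only line called against CTRL, lower by 0.28 (SE 0.057, edgeR adjusted p 0.00184), and MN1-BEND2 was 0.28 above MN1 (adjusted p 0.00147). The log2 fold change in MN1-BEND2 against CTRL was 0.00 with a 95% interval of -0.10 to 0.11. With offsets for GC content and length it was 0.16 (edgeR adjusted p 0.0212), and MN1-CXXC5 against CTRL went from -0.08 to -0.18 (adjusted p 0.0222). The difference between the fusions went from 0.09 (edgeR adjusted p 0.21) to 0.34 (adjusted p 0.00027). NUDT6, on the opposite strand, overlaps 11.9% of FGF2's exon bases, and the strand setting of the counting is not given in the sources used here.

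FGF21, a hormone-like FGF that is induced by nutrient and mitochondrial stress and signals through KLB, was the member with the largest fall. It lies on chromosome 19 at 48755559 to 48758333. Its counts were 47 and 75 in CTRL, 53 and 29 in BEND2, 21 and 22 in MN1, 16 and 32 in MN1-BEND2, and 4 and 3 in MN1-CXXC5. As levels these were 2.45 and 3.21 CPM, 1.94 and 1.81, 1.17 and 1.18, 0.846 and 1.3, and 0.237 and 0.172. No library of a line with an MN1 sequence reached the CTRL or BEND2 range, and the MN1-CXXC5 libraries stood lowest, close to the limit of 3 counts that a count of 0 would allow. The log2 fold change was -3.76 ± 0.45 (SE, edgeR, n = 2 per group, adjusted p 4.23e-06) in MN1-CXXC5, -1.37 ± 0.24 in MN1-BEND2 (adjusted p 0.000343) and -1.27 ± 0.24 in MN1 (adjusted p 0.00101). BEND2 was at -0.59 and missed the threshold (adjusted p 0.0932).

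MN1-CXXC5 was lower than MN1 in FGF21 by a fitted log2 value of -2.49 (edgeR adjusted p 0.000254), whereas MN1-BEND2 and MN1 differed by -0.1 (adjusted p 0.834). FUT1, which starts 0.2 kb away on the opposite strand and whose exon bounds the stretch printed above, moved the same way in these libraries. Its log2 fold change was -1.9 in MN1-CXXC5, -0.93 in MN1-BEND2, -0.89 in MN1 and -0.36 in BEND2, all past the edgeR threshold (adjusted p 1.22e-07, 6.38e-06, 2.05e-05 and 0.0229). FUT1 was singled out after its values were seen. The gene on the other side, BCAT2 at 36.7 kb, fell by 0.39 in MN1-CXXC5 and rose by 0.28 in MN1-BEND2 and by 0.28 in MN1.

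**Figure D2:**
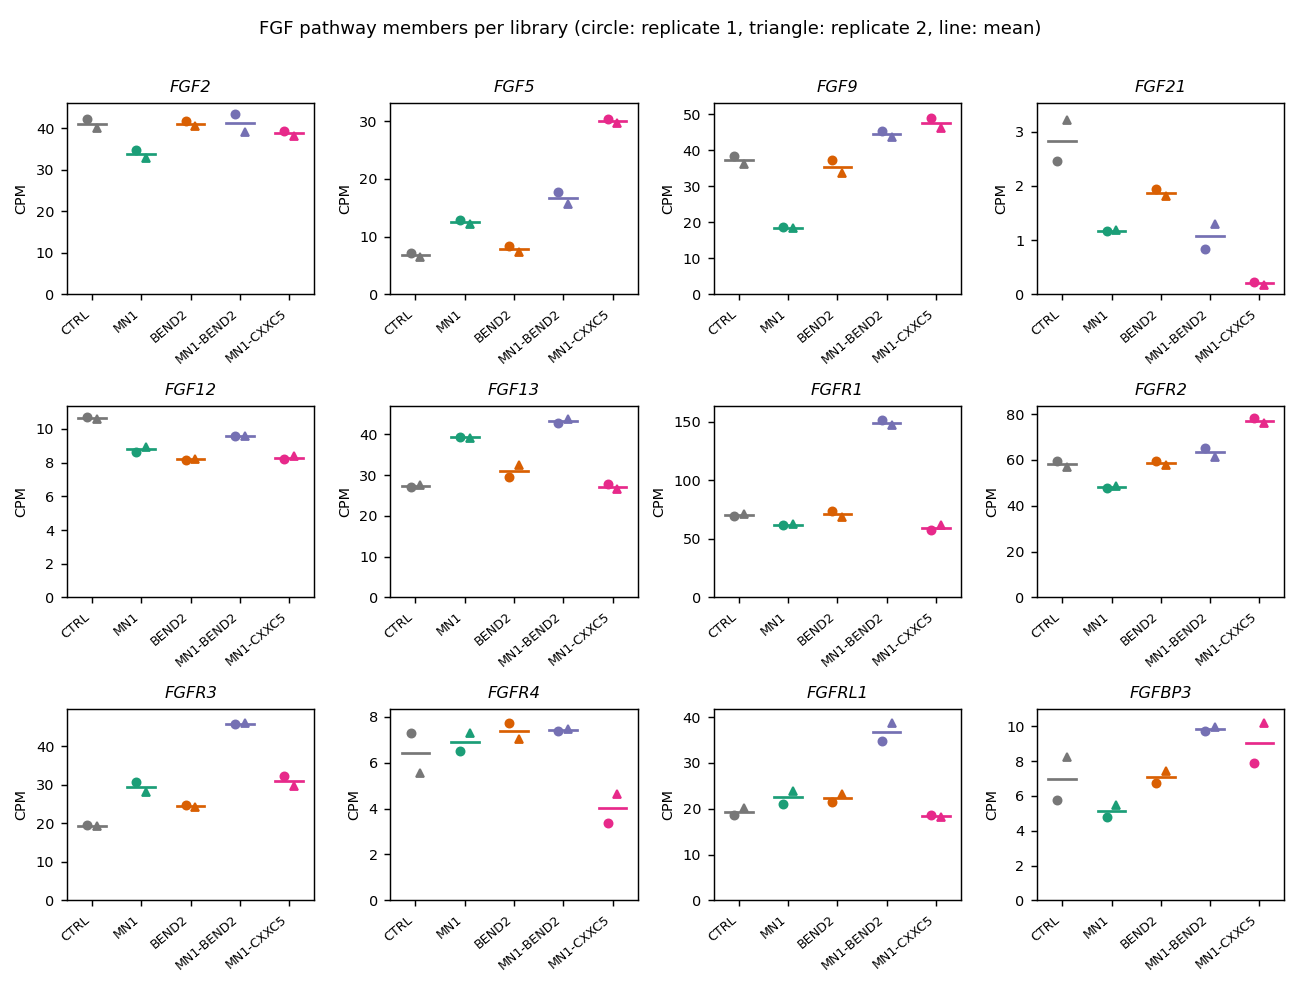
Level in CPM of 12 members in each library of the 5 groups, with replicate 1 as a circle, replicate 2 as a triangle and the group mean as a line, each axis starting at 0. FGFR1 at 151 and 147 CPM stands apart in MN1-BEND2, FGF5 at 30.4 and 29.7 in MN1-CXXC5, and FGF9 at 18.7 and 18.3 in MN1.

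FGF18 and FGF20 passed on low counts. FGF18, a ligand with roles in bone, cartilage and cortex development, had 1 and 8 counts in CTRL, 4 and 12 in MN1, 13 and 4 in BEND2, 25 and 31 in MN1-BEND2 and 9 and 13 in MN1-CXXC5. Only MN1-BEND2 was above all other libraries, with a log2 fold change of 2.58 ± 0.64 against CTRL (edgeR, n = 2 per group, adjusted p 0.00188). It was 1.89 without CTRL replicate 1 and 4.47 without CTRL replicate 2, called in both. MN1-CXXC5 against CTRL went from 1.58 (edgeR adjusted p 0.0691) to 1.91 (adjusted p 0.0365) with the GC and length offsets. MN1-BEND2 was 1.55 above MN1 (edgeR adjusted p 0.023), a value that became 0.99 without MN1 replicate 1. This call was lost in 5 of the 19 alternatives counted at the end. MN1-CXXC5 against MN1 was 0.55 (adjusted p 0.472). MN1-BEND2 was 1.00 above MN1-CXXC5, which did not pass (adjusted p 0.0862). The value against BEND2 was 1.72 (edgeR adjusted p 0.0136), a call that ended without BEND2 replicate 2 (1.42, adjusted p 0.0799) or MN1-BEND2 replicate 2 (1.75, adjusted p 0.0507).

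FGF20, a close relative of FGF9, had 7 and 6 counts in CTRL and 16 and 14 in MN1, 13 and 10 in MN1-CXXC5, 11 and 13 in MN1-BEND2 and 12 and 8 in BEND2. All libraries outside CTRL were above CTRL (0.365 and 0.257 CPM), those of BEND2 included (0.44 and 0.499 CPM). The rise was called in MN1, at 1.4 on the log2 scale (edgeR adjusted p 0.00986), and in MN1-CXXC5, at 1.12 (adjusted p 0.0466). Neither call was stable. In MN1 it ended without CTRL replicate 2 (1.15, adjusted p 0.0945) or MN1 replicate 1 (1.27, adjusted p 0.0659), and in MN1-CXXC5 it ended when any 1 of 9 of the 10 libraries was left out, with the highest adjusted p, 0.259, without MN1-CXXC5 replicate 1 (0.89). It also ended with library totals, with no filter and with GC and length offsets (adjusted p 0.0551, 0.0895 and 0.0507). FGF1, the acidic FGF that binds all of the receptors, had 0 to 16 counts per library and passed in no comparison.

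Among the intracellular FGFs, FGF13 and FGF12 were expressed. FGF13, on the X chromosome at 138614731 to 139222777, stood at 27.1 and 27.7 CPM in CTRL, 29.6 and 32.6 in BEND2, 27.8 and 26.5 in MN1-CXXC5, 39.4 and 39.2 in MN1, and 42.8 and 43.9 in MN1-BEND2. MN1 and MN1-BEND2 were high, and the MN1-CXXC5 libraries overlapped those of CTRL. The rise was 0.66 ± 0.052 in MN1-BEND2 (edgeR, n = 2 per group, adjusted p 5.42e-07) and 0.52 ± 0.053 in MN1 (adjusted p 1.15e-05), against -0.01 in MN1-CXXC5 with a 95% interval of -0.13 to 0.10. With the GC and length offsets MN1-CXXC5 was at -0.19 (edgeR adjusted p 0.0212) and BEND2 went from 0.17 (adjusted p 0.058) to 0.23 (adjusted p 0.0281). MN1-BEND2 exceeded MN1-CXXC5 by 0.68 (edgeR adjusted p 4.83e-07), or 1.03 with the offsets, and MN1-CXXC5 against MN1 was -0.53 (adjusted p 7.57e-06).

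FGF12 was highest in CTRL, at 10.7 and 10.6 CPM, and lay between 8.17 and 9.57 CPM in the other 8 libraries. It fell by 0.36 in MN1-CXXC5, 0.28 in MN1 and 0.38 in BEND2 (edgeR adjusted p 0.00588, 0.0233 and 0.0142), and its value in MN1-BEND2 was -0.16 (adjusted p 0.178). The calls in MN1 and in BEND2 ended when any 1 of the 4 libraries compared was left out, with adjusted p between 0.0627 and 0.12, and with the GC and length offsets (-0.19, adjusted p 0.139, and -0.3, adjusted p 0.0504). With the offsets MN1-BEND2 against CTRL was 0.03, and the difference between the fusions went from 0.2 (edgeR adjusted p 0.102) to 0.51 (adjusted p 0.000534). Without CTRL replicate 1 and MN1 replicate 1 together, the call in MN1-CXXC5 ended too (-0.32, adjusted p 0.0518). FGF11 had 3 to 24 counts per library and passed in no comparison. Of its exon bases, 75.0% are shared with AC113189.4, a processed transcript on the same strand that had 1 count in all. How reads from the shared bases were counted is not given in the sources used here, so the level of FGF11 is uncertain. FGF14 had at most 3 counts in any library.

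Among the receptors, FGFR1 rose in MN1-BEND2 and fell in MN1-CXXC5. FGFR1, a receptor altered in some low-grade gliomas, lies on chromosome 8 at 38400215 to 38468834. It stood at 69.3 and 70.8 CPM in CTRL, 74.1 and 68.7 in BEND2, 61.5 and 62.8 in MN1, 57.7 and 61.5 in MN1-CXXC5, and 151 and 147 in MN1-BEND2. Only the MN1-BEND2 libraries were high, and the remaining 8 lay between 57.7 and 74.1. The log2 fold change was 1.09 ± 0.042 against CTRL (edgeR, n = 2 per group, adjusted p 1.66e-09), 1.26 against MN1 (adjusted p 6.93e-10), 1.06 against BEND2 (adjusted p 2.82e-09) and 1.32 against MN1-CXXC5 (adjusted p 6.41e-10). FGFR1 fell by 0.23 in MN1-CXXC5 (edgeR adjusted p 0.00152) and by 0.17 in MN1 (adjusted p 0.00945). The fall in MN1 missed the threshold without CTRL replicate 2 (adjusted p 0.0588) or MN1 replicate 1 (adjusted p 0.0575).

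TACC1, 259.4 kb from FGFR1 at higher coordinates, rose by 0.90 in MN1-BEND2, 0.54 in MN1 and 0.29 in MN1-CXXC5 (edgeR adjusted p 1.61e-09, 3.73e-07 and 5.36e-05). NSD3, 17.9 kb away on the other side, was at -0.02 in MN1-BEND2 (adjusted p 0.641). Both were singled out after their values were seen.

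FGFR2, on chromosome 10 at 121478334 to 121598458, fell in MN1, as FGFR1 did, and rose in MN1-CXXC5, where FGFR1 fell. It stood at 59.6 and 56.8 CPM in CTRL, 59.4 and 57.8 in BEND2, 47.7 and 48.6 in MN1, 65.2 and 61.4 in MN1-BEND2 and 78.1 and 76 in MN1-CXXC5. MN1-CXXC5 was the high group and MN1 the low one. The log2 fold change was 0.41 ± 0.043 in MN1-CXXC5 (edgeR, n = 2 per group, adjusted p 1.44e-05) and -0.27 ± 0.045 in MN1 (adjusted p 0.000457), and FGFR2 was lower in MN1-BEND2 than in MN1-CXXC5, at -0.29 (adjusted p 0.000101). MN1-BEND2 was 0.12 above CTRL (edgeR adjusted p 0.0342). That call ended without CTRL replicate 2 (0.08, adjusted p 0.238), without MN1-BEND2 replicate 1 (0.08, adjusted p 0.228), without MN1 replicate 1 (0.11, adjusted p 0.0605) and with the GC and length offsets (0.05, adjusted p 0.395).

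FGFR3, the receptor that marks astrocyte progenitors, lies on chromosome 4 at 1793293 to 1808872, and the stretch printed above ends next to its first base. It stood at 19.6 and 19.2 CPM in CTRL, 24.8 and 24.3 in BEND2, 30.8 and 28.2 in MN1, 32.3 and 29.7 in MN1-CXXC5 and 45.7 and 46 in MN1-BEND2. All 8 other libraries lay above CTRL, and MN1 and MN1-CXXC5 overlapped. The rise was 1.24 ± 0.058 in MN1-BEND2 (edgeR, n = 2 per group, adjusted p 6.84e-09), 0.68 ± 0.062 in MN1-CXXC5 (adjusted p 4.61e-06), 0.6 ± 0.062 in MN1 (adjusted p 1.1e-05) and 0.34 ± 0.062 in BEND2 (adjusted p 0.00431). MN1-CXXC5 and MN1 differed by 0.07, with a 95% interval of -0.04 to 0.19, and with offsets for GC content and length, described below, by 0.55 (edgeR adjusted p 1.91e-05).

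FGFRL1, the receptor without a kinase domain, on chromosome 4 at 1009936 to 1026897, stood at 18.7 and 20.1 CPM in CTRL, 21.1 and 23.9 in MN1, 21.4 and 23.2 in BEND2, 34.7 and 38.8 in MN1-BEND2 and 18.6 and 18.3 in MN1-CXXC5. MN1-BEND2 alone stood apart. It rose by 0.92 ± 0.077 against CTRL (edgeR, n = 2 per group, adjusted p 9.07e-07), and was above MN1 by 0.71 and above BEND2 by 0.73 (adjusted p 1.09e-05 and 8.77e-06). FGFR4, a receptor best known from liver and muscle, stood at 7.29 and 5.56 CPM in CTRL and at 6.52 to 7.73 in MN1, BEND2 and MN1-BEND2, while MN1-CXXC5 was low at 3.37 and 4.64. Its fall in MN1-CXXC5 was by 0.67 (SE 0.17, edgeR adjusted p 0.00798). Without CTRL replicate 1 it was -0.47 (adjusted p 0.0704) and without MN1-CXXC5 replicate 1 it was -0.46 (adjusted p 0.083).

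The values of these last 3 receptors moved with the GC content of the transcripts. FGFR3, FGFRL1 and FGFR4 have GC contents of 62, 63.5 and 63.6% in their longest transcripts, the highest among the tested members, whereas FGF5 has 36.7%. Over all 2358 tested genes with 60% GC or more, the median log2 fold change was 0.3 in MN1-BEND2 and -0.48 in MN1-CXXC5, and over the 2943 genes with under 40% it was -0.23 and 0.07. With offsets for GC content and length fitted per library, the rise of FGFR3 was 0.94 in MN1-BEND2 and 1.06 in MN1-CXXC5, so its difference between the fusions went from 0.56 (edgeR adjusted p 2.76e-06) to -0.13 (adjusted p 0.0823). FGFRL1 in MN1-CXXC5 against CTRL went from -0.08 (adjusted p 0.51) to 0.39 (adjusted p 0.00399), and its rise in MN1-BEND2 from 0.92 to 0.6 (adjusted p 5.17e-05). FGFR4's fall in MN1-CXXC5 went to -0.22 (edgeR adjusted p 0.344), and its excess in MN1-BEND2 over MN1-CXXC5 from 0.89 (adjusted p 0.000735) to 0.11 (adjusted p 0.633). The rise of FGFR3 in BEND2 went from 0.34 to 0.21 (adjusted p 0.0569). The excess of FGFRL1 in MN1-BEND2 over MN1-CXXC5 went from 1.00 (edgeR adjusted p 5.09e-07) to 0.21 (adjusted p 0.0535). FGFR1, at 51.3% GC, kept 1.00 in MN1-BEND2, and FGF5 kept 1.46 and 2.06 in the fusions. The part of GC content in these results was not tested beyond the offsets.

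**Figure D3:**
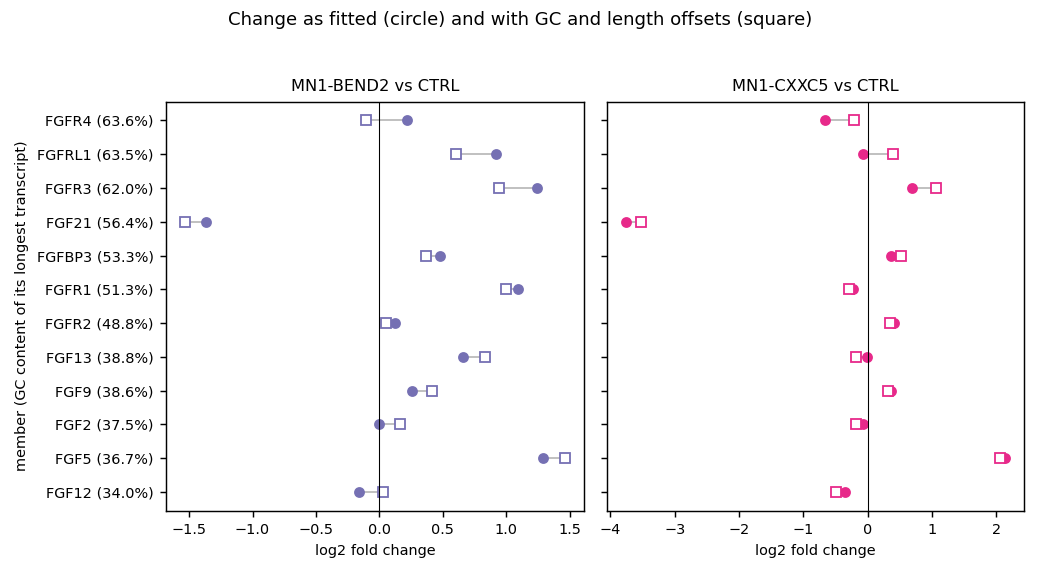
Log2 fold change of 12 members in MN1-BEND2 and in MN1-CXXC5 against CTRL, as fitted (circles) and with offsets for GC content and length (open squares), members ordered by the GC content of their longest transcript. The 3 receptors at 62 to 63.6% GC shift left in MN1-BEND2 and right in MN1-CXXC5, while FGFR1 and FGF5 stay near their fitted values.

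Of the co-receptors and binding proteins, only KLB and FGFBP3 passed the filter on low counts. KLB, which pairs with FGFR1 or FGFR4 to receive FGF21 and FGF19, had 6 to 18 counts per library and passed in no comparison, and KL had at most 2. FGFBP3, a carrier that frees FGFs from heparan sulfate, stood at 5.78 and 8.21 CPM in CTRL, 4.79 and 5.46 in MN1, 6.75 and 7.43 in BEND2, 9.73 and 9.95 in MN1-BEND2 and 7.87 and 10.2 in MN1-CXXC5. The MN1 libraries were lowest, and the CTRL libraries differed from each other. MN1 against CTRL was at -0.46 and missed the threshold (edgeR adjusted p 0.0569), but was called in 9 of the 19 alternatives counted at the end. MN1-BEND2 was above MN1 by 0.94 and MN1-CXXC5 above MN1 by 0.82 (edgeR, n = 2 per group, adjusted p 0.000762 and 0.0022). The rise in MN1-BEND2 against CTRL was 0.48 (edgeR adjusted p 0.0263) and became 0.26 (adjusted p 0.213) without CTRL replicate 1. It also ended without MN1-BEND2 replicate 1 (adjusted p 0.0686) or 2 (adjusted p 0.102), and with the GC and length offsets (0.37, adjusted p 0.0851), which took MN1-CXXC5 against CTRL from 0.36 (adjusted p 0.103) to 0.51 (adjusted p 0.0334). MN1-BEND2 was 0.48 above BEND2 (adjusted p 0.0318), a call that ended when any 1 of those 4 libraries was left out and with the offsets (0.39, adjusted p 0.0813).

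The 15 members below the filter were given no test. FGF4, a ligand of the early embryo that sits with FGF3, FGF19 and CCND1 on chromosome 11, had 0 and 0 counts in CTRL and in MN1, 2 and 0 in BEND2, 0 and 3 in MN1-CXXC5 and 8 and 10 in MN1-BEND2. Only in MN1-BEND2 did both libraries hold FGF4 reads, and its level there was at least 5.9-fold higher than in CTRL and at least 5.17-fold higher than in MN1, with a floor of 3 counts over the group. The ratio to BEND2 was 8.92, with an exact 95% interval of 2.14 to 79.3 that covers counting error only, and to MN1-CXXC5 it was 4.89 (1.43 to 25.9). With no filter on low counts, edgeR called FGF4 in MN1-BEND2 against CTRL (adjusted p 0.000328), MN1 (0.000769) and BEND2 (0.0137). Against MN1-CXXC5 the same fit did not call it (edgeR adjusted p 0.0684). FGF4 was singled out after its values were seen.

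Its neighbour CCND1, the cyclin D1 gene at 116.5 kb, rose in all of the lines, by 1.08 in MN1-BEND2, 1.02 in MN1-CXXC5, 0.63 in MN1 and 0.43 in BEND2 (edgeR adjusted p 5.07e-09, 2.83e-08, 1.58e-06 and 0.000404). FGF3 and FGF19, which lie on either side of FGF4, had at most 1 and 6 counts in any library.

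FGFBP1, a binding protein of squamous epithelia, had 23 and 7 counts in MN1 and 1 to 6 elsewhere. With no filter, edgeR called it in MN1 against CTRL (adjusted p 0.000657), where the ratio was 4.28 (1.92 to 10.8, counting error only). The 23 counts fell in MN1 replicate 1, one of the pair of libraries with the salivary and squamous markers, while CTRL replicate 1, the other, had 3. The part of those markers in this value was not tested. FGF23, the bone hormone of phosphate balance, had 0 and 7 counts in CTRL and 13 and 8 in MN1, a ratio of 3.43 (1.4 to 9.54) that was called with no filter (edgeR adjusted p 0.0137). FGF22 had 2 to 9 counts per library, FGF17 1 to 10, FGFBP2 2 to 8, FGF8 2 to 6, FGF7 0 to 4, FGF6 0 to 3, FGF16 0 to 2 and FGF10 0 to 1, and none of them was called against CTRL with no filter. A count of 0 allows up to 0.112 to 0.189 CPM, depending on the library.

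**Figure D4:**
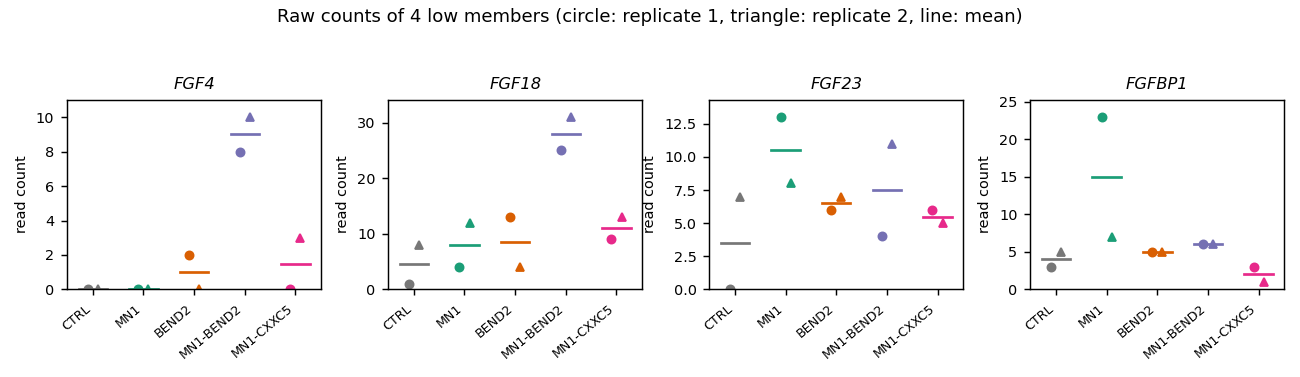
Raw read counts of FGF4, FGF18, FGF23 and FGFBP1 in each library, replicate 1 as a circle and replicate 2 as a triangle, with the group mean as a line and each axis starting at 0. FGF4 has 8 and 10 counts in MN1-BEND2 and FGF18 has 25 and 31, above every other library, and FGFBP1 has 23 counts in MN1 replicate 1 alone.

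The fusions were also set against the unfused proteins and against each other. MN1-BEND2 against MN1 gave 10 called members by edgeR, FGF2, FGF5, FGF9, FGF13, FGF18, FGFR1, FGFR2, FGFR3, FGFRL1 and FGFBP3, all of them higher, where 46.3% of all genes were called, 23.2% higher and 23.2% lower. The members' median was 0.39, against 0.003 for all genes. FGF13 was the weakest of these, at 0.14 (adjusted p 0.0352), and its call was lost in 6 of the 19 alternatives counted at the end. The call of FGF18, on low counts, was lost in 5 of them. Against BEND2, 8 were higher and 1 lower, where 43.6% of all genes were called. The one lower was FGF21, at -0.78 (edgeR adjusted p 0.0222), a call that ended without BEND2 replicate 1 (-0.73, adjusted p 0.124) or MN1-BEND2 replicate 1 (-0.53, adjusted p 0.153).

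MN1-CXXC5 against MN1 gave 5 higher members, FGF2, FGF5, FGF9, FGFR2 and FGFBP3, and 4 lower, FGF13, FGF21, FGFR4 and FGFRL1, where 48.8% of all genes were called by edgeR. FGFR2 was 0.68 higher (adjusted p 1.98e-07). FGF2 was 0.2 higher (edgeR adjusted p 0.0163), and this ended without MN1 replicate 2 (0.15, adjusted p 0.121) or MN1-CXXC5 replicate 1 (0.17, adjusted p 0.0885), and with the GC and length offsets (0.04, adjusted p 0.63). FGFRL1, at -0.29 (adjusted p 0.0148), turned to 0.27 (adjusted p 0.0276) with the GC and length offsets, and FGFR4 went from -0.78 (adjusted p 0.00273) to -0.24 (adjusted p 0.311). MN1-BEND2 against MN1-CXXC5 gave 6 higher members, FGF13, FGF21, FGFR1, FGFR3, FGFR4 and FGFRL1, and 2 lower, FGF5 and FGFR2, where 58.6% of all genes were called. Of the 6, FGFR3, FGFR4 and FGFRL1 are the GC-rich receptors whose call did not hold with the offsets.

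The other genes of the pathway were taken from lists by their role and are described by counts and medians only. Over all tested genes, edgeR called 51.9% against CTRL in MN1-BEND2 (26.7% higher, 25.2% lower) and 44.3% in MN1-CXXC5 (19.2% and 25.1%). In MN1 it called 43% (21.6% and 21.4%) and in BEND2 14.2% (6.71% and 7.46%). The counts called in each list are to be read beside these shares, and no list was tested as a set. The lists follow the signal from the receptor inward. Docking and adaptor proteins, which link the receptor to RAS, were called in both directions in MN1-BEND2, with 6 of 13 higher, 3 lower and a median of 0.10 (edgeR, against 0.008 for all genes). The guanine exchange factor SOS2 rose from 37.3 ± 1.19 to 62.7 ± 0.034 CPM (SD, n = 2 per group), GRB2 by 0.72, SHC1 by 0.61 and GAB1 by 0.59. In MN1-CXXC5 4 were higher and 2 lower, with GAB1 at 0.44, GRB2 at 0.18 and FRS3 at -0.71. In MN1 2 rose, GRB2 among them, and 2 fell, CBL and SOS1, and in BEND2 only SOS2 fell, by 0.19.

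In the RAS to ERK cascade, 5 of 16 genes were higher and 5 lower in MN1-BEND2, with a median of -0.06. Of all genes, 26.7% were called higher there and 25.2% lower. The kinase gene MAP2K1 rose by 0.27 and BRAF fell by 0.5. In MN1-CXXC5 3 were higher and 8 lower, MAPK3, which encodes ERK1, falling by 0.84, ARAF by 0.63 and MAP2K2 by 0.49, and RPS6KA3 rising by 0.35. In MN1 6 rose and 5 fell, with changes of the named genes between -0.42 (RPS6KA2) and 0.24 (RPS6KA1), and in BEND2 1 rose and 3 fell.

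Transcription factors and cyclin D1, commonly induced after receptor activation, had the list median farthest from 0 in MN1-BEND2. In MN1-BEND2 10 of 12 were higher and 0 lower by edgeR, with a median of 1.15 against 0.008 for all genes. DESeq2 gave 9 higher and 0 lower. MYC rose from 105 ± 1.67 to 326 ± 1.65 CPM (log2 fold change 1.64, SE 0.03, n = 2 per group, edgeR adjusted p 5.09e-12), JUNB by 2.26, and the PEA3 factor ETV5 by 1.28. In MN1 2 rose, CCND1 (0.63) and ETV1 (0.53), and 7 fell, ETV5 by 1.02 and ETV4 by 0.72 among them, with a median of -0.38. DESeq2 gave 2 higher and 3 lower there, and the fit without CTRL replicate 1 and MN1 replicate 1 gave 2 and 4. In MN1-CXXC5 5 rose and 3 fell, with MYC at 0.74, CCND1 at 1.02, ETV5 at 0.82 and ETV1 at 0.31. With GC and length offsets that split became 9 higher and 0 lower, and with DESeq2 3 higher and 0 lower. In BEND2 3 rose, CCND1 by 0.43, EGR1 by 0.38 and MYC by 0.23.

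Feedback inhibitors, the Sprouty and SPRED proteins and the ERK phosphatases that ERK activity induces, gave 8 higher and 1 lower of 12 tested in MN1-BEND2, with a median of 0.65. DUSP4 rose from 16.1 ± 0.84 to 35.5 ± 0.956 CPM (log2 fold change 1.14, SE 0.067, n = 2 per group, edgeR adjusted p 4.53e-08), DUSP5 by 0.97, SPRED2 by 0.85 and SPRY2 by 0.62. In MN1-CXXC5 6 rose and 1 fell, DUSP4 by 1.02, DUSP6 by 0.69 and LRIG1 by 0.34 upward and SPRY1 by 0.75 downward. In MN1 2 rose and 6 fell, with a median of -0.23: DUSP4 fell by 1.45, SPRY4 by 0.99, DUSP6 by 0.74 and SPRY2 by 0.54. DESeq2 gave 0 higher and 5 lower in MN1. In BEND2 DUSP5 (0.37) and SPRY4 (0.33) passed with edgeR, and neither did with DESeq2 or with the GC and length offsets. SPRY3 was below the filter, with 46 counts in all.

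Heparan sulfate carriers, the proteoglycans that hold FGFs at the cell surface, were mixed in MN1-BEND2, with 3 of 11 tested higher and 5 lower. SDC1 rose by 1.27 and GPC4 by 0.88, and GPC6 fell by 0.94 and SDC4 by 0.76. In MN1-CXXC5 2 were higher and 9 lower, with a median of -0.37 against -0.031 for all genes, GPC4 rising by 0.58 and GPC1 falling by 0.83, AGRN by 0.45 and SDC4 by 0.44. In MN1 2 rose and 6 fell, SDC4 by 0.75 and SDC2 by 0.39 among the falls and GPC3 by 0.38 among the rises. In BEND2 5 rose, AGRN by 0.4 among them, and GPC6 fell by 0.38. The MN1-CXXC5 split became 2 higher and 3 lower with GC and length offsets, with a median of -0.02. That in BEND2 became 1 and 1 with the offsets and with DESeq2. In MN1-BEND2 the offsets gave 3 higher and 7 lower, and the median went from -0.18 to -0.43. Of 14 tested enzymes that make or edit the chains, 4 rose and 5 fell in MN1-BEND2, 3 and 5 in MN1-CXXC5, 6 and 3 in MN1 and 1 and 1 in BEND2. The epimerase GLCE rose by 0.94, 0.34 and 0.79 in the first 3 of these. SULF2, which removes sulfate groups that FGFs bind, rose by 1.06 in MN1-CXXC5 and by 0.58 in MN1-BEND2 and fell by 0.69 in MN1.

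Membrane partners that bind FGF receptors gave 3 higher and 7 lower of 10 tested in MN1-BEND2, with a median of -0.42. Of all genes, 51.9% were called there, 26.7% higher and 25.2% lower. ANOS1, the anosmin gene, fell from 99.6 ± 1.82 to 41.4 ± 0.366 CPM (log2 fold change -1.27, SE 0.036, n = 2 per group, edgeR adjusted p 1.5e-10), CDH2 (N-cadherin) fell by 1.14 and LRP1 by 0.78. FLRT2, a receptor-binding guidance protein, had 2 counts over the CTRL libraries and 382 over those of MN1-BEND2, a ratio of 188 with an exact 95% interval of 51.6 to 1560 that covers counting error only, and 24 in MN1-CXXC5, a ratio of 14.5 (3.6 to 127). In MN1-CXXC5 1 rose and 4 fell, NRP1 by 0.54 and ANOS1 by 0.5, in MN1 1 rose and 5 fell, LRP1 by 0.47 and ANOS1 by 0.4, and in BEND2 FLRT3 rose by 0.63 and CDH2 and NCAM1 fell by 0.25 and 0.22.

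Among 10 tested partners of the intracellular FGFs, 4 rose and 3 fell in MN1-BEND2, 2 and 4 in MN1-CXXC5, 7 and 2 in MN1 and 2 and 0 in BEND2. The calmodulin gene CALM2 rose by 0.36 in MN1-CXXC5, 0.39 in MN1-BEND2 and 0.32 in MN1, and CALM3 rose by 0.39 in MN1-BEND2 while it fell by 0.24 in MN1-CXXC5. The sodium channel gene SCN9A fell by 1.74 in MN1-BEND2 and SCN8A by 0.53 in MN1, and the scaffold MAPK8IP2, which binds FGF12, fell by 0.81 in MN1-BEND2 and by 0.34 in MN1-CXXC5.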

How the data were processed

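RNA-seq counts of 10 TREx293 libraries were analysed. The authors deposited whole-number read counts per gene, without normalization. The submitters' processing notes list featureCounts 2.0.0, HISAT2 and SAMtools 1.0.1, with GRCh38 as the build. For the counting, strand setting and annotation were not given in the sources used here. Lines of 45 identifiers present on 2 lines were summed, and 27 symbols turned into dates were restored through GENCODE v29. Members were matched by symbol.

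The test was the quasi-likelihood one of edgeR 4.0.16 (R 4.3.3), after TMM normalization and the filterByExpr minimum of 10 counts, as 1 fit over all 10 libraries with group as the only factor and 5 residual degrees of freedom, and Benjamini-Hochberg adjustment over 18127 genes. On simulated counts for MN1-BEND2 against CTRL the fit was checked for known changes, placed in a small set of genes above a count limit. Changes in genes with low counts, or in a large share of all genes as called here, were not simulated. CPM uses TMM factors, SE is that of a log2 fold change, and exact binomial intervals are at 95%. Alternatives were DESeq2 1.42.0 (size factors, and its Wald test), library totals, no filter, a CPM filter, a replicate block, GC and length offsets, and leaving out libraries.

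The members and lists were chosen with earlier results of these data known. All members are accounted for, and up to 4 genes per list and comparison with the smallest adjusted p were named. Some genes that this rule selects are not reported here. Neighbours are the nearest 3 protein-coding genes on each side. Promoter windows are RefSeq's 250 bases before a start.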

Additional observations from a re-analysis of the deposited data

How the results depend on the processing

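Of 67 called results for single members in the 8 comparisons, 45 kept direction and call in all 19 alternatives, 18 of them planned; leaving out CTRL replicate 1 and MN1 replicate 1 together was added after seeing the data. Another 21 lost their call with the sign kept in at least 1 alternative, and 2 of the called results changed sign. Of these 2, FGFRL1 in MN1-CXXC5 against MN1 is also among the 21. FGFR3 in MN1-BEND2 against MN1-CXXC5 is not, as it lost its call only where its sign changed. With GC and length offsets, alone or with the replicate block, FGFRL1 turned to 0.27 in MN1-CXXC5 against MN1 and to 0.39 against CTRL, where it had not been called. FGFR3 in MN1-BEND2 against MN1-CXXC5 turned to -0.13 with the offsets and -0.12 with the block added, uncalled in both. FGF2 in MN1-BEND2 against BEND2, at 0.00, became 0.11 with the block and the offsets. The cause was not tested. Of the results that were not called, 21 were called with the same sign in at least 1 alternative. FGFBP3 and FGFRL1 in MN1 against CTRL were among them.

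The count of 2 members called in BEND2 against CTRL became 1 with no filter, with GC and length offsets, and without CTRL replicate 1 and MN1 replicate 1; it became 4 with the replicate block and 4 with the block and the offsets. DESeq2's Wald test called 0, with 2 members at an unadjusted p under 0.05 (5 by edgeR) and no adjusted p given for 9 of the 17. Leaving out 1 library at a time gave 1 to 2 there. The same range was 8 to 10 in MN1-BEND2, 7 to 10 in MN1-CXXC5 and 7 to 11 in MN1 against CTRL, 8 to 10 and 7 to 9 for MN1-BEND2 against MN1 and BEND2, 7 to 9 for MN1-CXXC5 against MN1, and 8 to 9 between the fusions. A lone library left in a group was assumed to vary like the other groups.

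Over all genes, DESeq2's Wald test called 6107, 4919, 4810 and 805 in MN1-BEND2, MN1-CXXC5, MN1 and BEND2 against CTRL, where edgeR called 9416, 8033, 7786 and 2569, and 5287 and 4769 in MN1-BEND2 against MN1 and BEND2, where edgeR called 8398 and 7909. In BEND2 against CTRL the block called 4159, the offsets 1641, the fits without 1 library 1064 to 2526 and the fit without CTRL replicate 1 and MN1 replicate 1 called 1239. The labels share replicate numbers across groups. Deviations of same-numbered libraries correlated weakly but positively in all 10 pairs of groups, from 0.066 (MN1 and BEND2) to 0.29 (CTRL and MN1). The numbers were not taken as pairs in the main fit, and the replicate block is the alternative that uses them. Whether same-numbered libraries were handled together was not tested. The other member counts stayed within 1.5 times of the main count under the block. Depth limits the 15 untested members and FGF1, FGF11, FGF18, FGF20 and KLB, whose libraries hold at most 31 counts.

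Among the pathway lists, called genes in MN1-BEND2 against CTRL stayed within 1.5 times under the 4 alternatives run on lists (GC and length offsets, replicate block, DESeq2, and leaving out CTRL replicate 1 with MN1 replicate 1). In MN1, RAS to ERK genes went from 11 to 6, 3 and 5 with the offsets, DESeq2 and both libraries out, proteoglycans from 8 to 4 with the last 2 of these, and the enzymes from 9 to 5 without both libraries. In MN1-CXXC5, DESeq2 took docking proteins from 6 to 3, enzymes from 8 to 5 and membrane partners from 5 to 3, the offsets took intracellular FGF partners from 6 to 3, and leaving both libraries out took transcription factors from 8 to 5. In BEND2, where lists held 1 to 6 called genes, DESeq2 left 0 to 2, the fit without both libraries 0 to 2 and the offsets 0 to 3, with the feedback inhibitors going from 2 to 0. The block raised BEND2 counts from 4 to 8 for RAS to ERK genes, from 1 to 3 for docking proteins and from 2 to 4 for intracellular FGF partners.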
